A study of Mus musculus with 15 samples.

Results

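The vacuolar proton pump was followed across 15 expression arrays of primary mouse embryonic fibroblasts (MEFs) that lacked histone deacetylase 1 (Hdac1), had less histone deacetylase 2 (Hdac2), or both. The genes were Atp6v0a1, Atp6v0b, Atp6v0c, Atp6v0d1, Atp6v0e, Atp6v1a, Atp6v1b2, Atp6v1d, Atp6v1h and Atp6ap1. These 10 names were picked with earlier results of these data known, and which comparison led to them is not recorded. Their p-values therefore come from a fit over all genes and give no independent support for a direction. For each gene the probe set was chosen by the highest mean intensity over the 15 arrays among probe sets annotated to that symbol alone. This gave a value for 9 of the 10 genes, out of 18193 symbols with such a probe set. Atp6v0c had no such probe set, so its expression was not analysed. The 9 genes passed the filter on dim probe sets and were among 13382 genes tested.

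The cells were male MEFs in 5 groups of 3 arrays. KO/Kd cells were HDAC1 fl/fl, carried a retroviral small hairpin micro-RNA against Hdac2 and had received tamoxifen. KO cells were HDAC1 fl/fl with the scrambled micro-RNA and tamoxifen. Kd cells were HDAC1 fl/fl with the micro-RNA against Hdac2 and ethanol. The cells called +/+ tamoxifen here had intact HDAC1 +/+ and tamoxifen; their viruses are not named in the labels. Control cells were HDAC1 fl/fl with the scrambled micro-RNA and ethanol. All fl/fl cells also carried a retrovirus for Cre-ERT2, a Cre recombinase that acts only when tamoxifen is bound, and tamoxifen was used at 200 nM. KO and KO/Kd cells thus differ from control cells in tamoxifen as well as in Hdac1. The +/+ cells differ from control cells in tamoxifen and in cell origin, and possibly in their viruses. These differences cannot be told apart. Separate cultures for the 3 arrays of each group are not stated in the labels. The p-values then measure only the spread between these samples, and that spread may be technical.

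The vacuolar ATPase is a rotary pump that spends ATP to move protons into lysosomes, endosomes and the Golgi. Its V1 sector lies in the cytosol and splits ATP, and its V0 sector lies in the membrane and carries the protons. The acid it makes is needed by lysosomal enzymes, and the pump also takes part in the sensing of amino acids at the lysosome. Several pump genes are targets of the transcription factors TFEB, TFE3 and MITF, which bind E-box sequences at lysosomal genes.

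Both targeted genes were low where the labels say so. The mean intensity of Hdac1 was 156 ± 48.6 in KO/Kd, 161 ± 19.8 in KO, 3855 ± 105 in Kd, 4472 ± 311 in +/+ tamoxifen and 3557 ± 101 in control cells (SD, n = 3 each). The labels do not say whether the deletion covers the sequence that its probe set reads. Hdac2 was at 1025 ± 9.88 in KO/Kd, 7167 ± 617 in KO, 958 ± 62.1 in Kd, 7556 ± 120 in +/+ tamoxifen and 7051 ± 449 in control cells. The deposited values were not on identical distributions. The 75th percentile of intensity was 501 to 531 on KO/Kd arrays, 420 to 509 on KO, 438 to 461 on Kd, 448 to 472 on +/+ tamoxifen and 414 to 435 on control arrays. The median of all tested genes was 0.16 higher in KO/Kd than in control cells (log2), and between -0.04 and -0.01 after 3 ways of scaling the arrays. Differences of the pump genes are therefore given beside the median of all genes. Fibroblast markers were bright, with gene means of 524 to 50522 over all arrays. Their summed intensity was 254493 to 269069 on KO/Kd arrays, against 197096 to 205571 on control arrays. Of 10 tested, 7 were higher and 1 lower in KO/Kd than in control cells (46.2% and 19.3% of all genes). Postn was at 29423 and 12103, Col3a1 at 29893 and 15625, and Col1a1 was lower, at 22328 and 26375. In +/+ tamoxifen cells Postn was at 4623. Thy1 was at 328 in KO/Kd, 641 in KO, 127 in Kd, 1242 in +/+ tamoxifen and 280 in control cells.

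Promoter sequence was available for 8 of the 10 genes, counting Atp6v0c, as windows of 250 bases before and 50 after a RefSeq start site (GRCm38.p6). The E-box CACGTG, which reads the same on both strands, was in 4 of these 8 genes, against 7.15% of 32851 windows of the same length. The longer TCACGTGA, which contains it, was in 3 of the 8, against 0.974% of windows. The E-box was in 0 of 11 other pump genes with a promoter window. GGGCGG, searched on both strands, was in 6 of the 8, in 7 of the 11 other pump genes and in 35.7% of windows. These counts are per gene, with a match in any of its windows, whereas the shares are per window. Some genes, such as Atp6v0c, have several windows, so counts and shares are not on the same footing. A match describes the letters only. The stretches below show the 4 genes with an E-box, written in capitals, and Atp6v1d, which has none, for contrast. Positions count from the start site of each window. For Atp6v1a and Atp6v1d this site lies 443 and 370 bases inside the outer bound of the gene, so that their windows belong to a start within the gene, and for Atp6v0b it lies 4 bases inside. Atp6v0b holds 2 E-boxes, the first bases of which lie 36 and 18 bases before the site. In Atp6v0d1 the E-box begins 3 bases before the site and in Atp6v0e at base 4 counted from it, while in Atp6v1a it begins 131 bases before it. The stretch of Atp6v1a runs from 170 to 71 bases before its site, and the others from 80 before to 20 after. They lie at chr4:117887310-117887409 (minus strand) for Atp6v0b, chr8:105566045-105566144 (minus) for Atp6v0d1, chr17:26676316-26676415 (plus) for Atp6v0e, chr16:44139330-44139429 (minus) for Atp6v1a and chr12:78861619-78861718 (minus) for Atp6v1d.
Atp6v0b: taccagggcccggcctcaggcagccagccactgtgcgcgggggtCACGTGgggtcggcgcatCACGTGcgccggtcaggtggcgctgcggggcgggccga
Atp6v0d1: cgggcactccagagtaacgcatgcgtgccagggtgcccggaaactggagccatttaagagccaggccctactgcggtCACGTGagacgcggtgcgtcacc
Atp6v0e: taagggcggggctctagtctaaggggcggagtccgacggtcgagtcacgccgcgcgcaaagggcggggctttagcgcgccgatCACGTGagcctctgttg
Atp6v1a: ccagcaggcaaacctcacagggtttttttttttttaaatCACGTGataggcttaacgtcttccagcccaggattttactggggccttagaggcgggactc
Atp6v1d: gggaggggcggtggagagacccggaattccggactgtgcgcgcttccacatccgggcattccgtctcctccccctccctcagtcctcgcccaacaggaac

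At the probe sets used, the pump genes had their highest mean intensity in KO/Kd cells. Of the 9, 9 were higher in KO/Kd than in control cells and 0 were lower. Among all tested genes 46.2% were higher and 19.3% lower, or 6181 and 2585 genes. These were 4322 and 4467 after quantile normalization. The median difference of the pump genes was 1.04 on the log2 scale, with a range of 0.64 to 1.76, and 0.88 above the median of all genes. With arrays scaled or normalized in 3 other ways the median was 0.78 to 0.87, and 8 or 9 of 9 genes were past the threshold. More cells of a type and more RNA per cell cannot be told apart in such bulk samples.

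**Figure D1:**
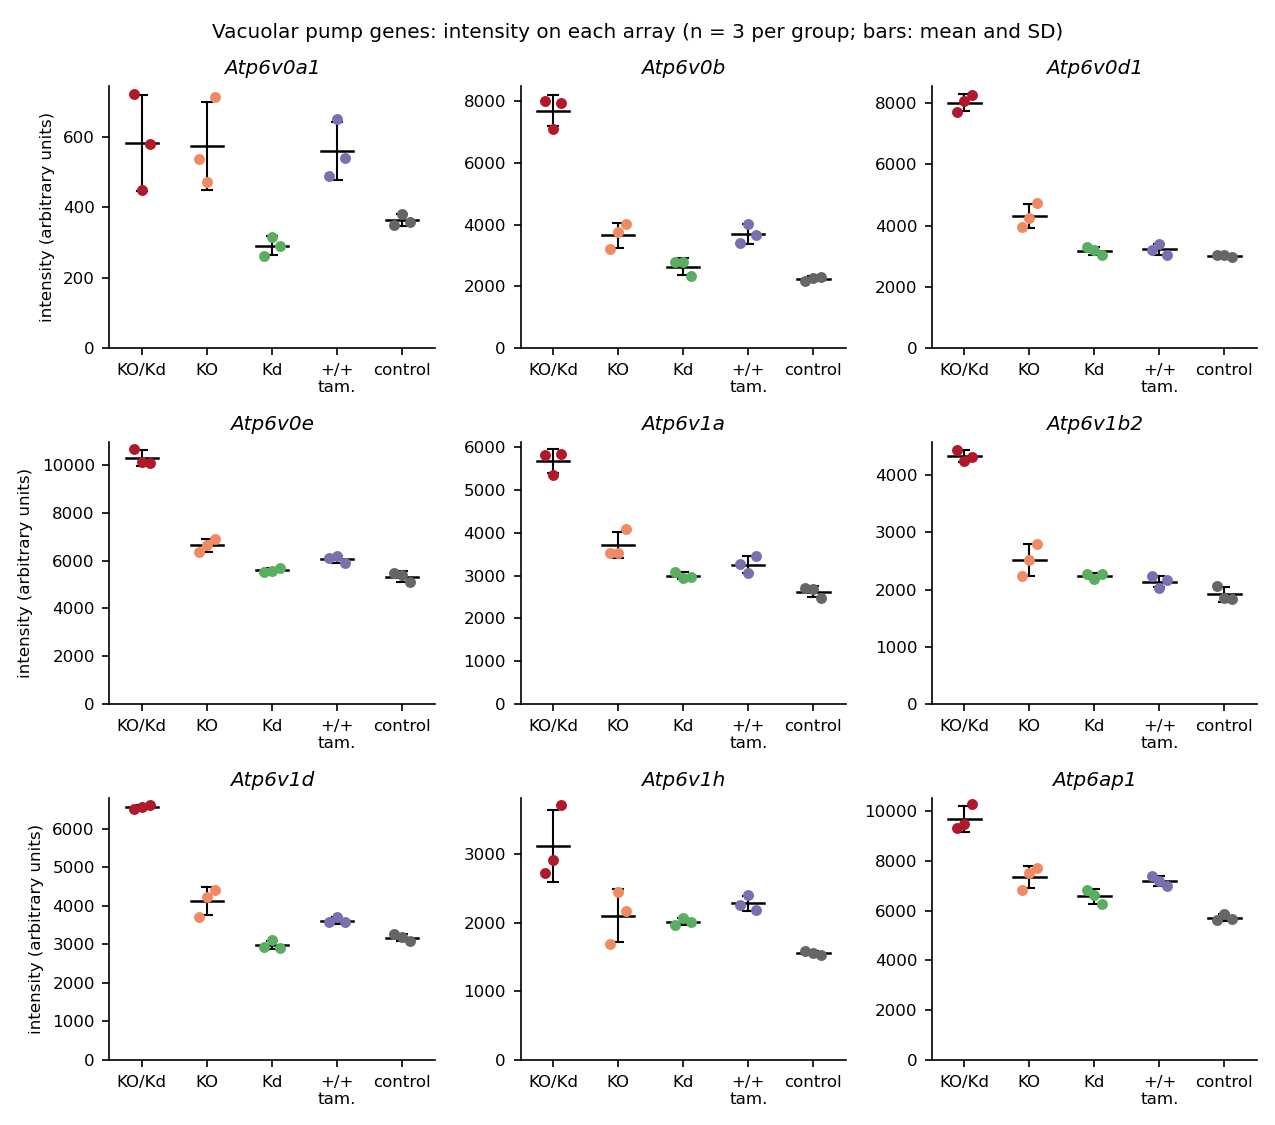
Intensity (arbitrary units, linear axis from 0) of each pump gene on every array, in 9 panels, for KO/Kd, KO, Kd, +/+ tamoxifen and control cells. Points are arrays (n = 3 per group), and bars show the mean and SD. In 8 of 9 panels the 3 KO/Kd arrays lie above every other array, whereas Atp6v0a1 overlaps between KO/Kd, KO and +/+ tamoxifen cells. How often this holds among all tested genes was not counted.

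Among the membrane-sector genes, Atp6v0b stood at the greatest difference. It encodes the c″ proteolipid of the rotor ring, which takes up protons as it turns, and lies at chr4:117884330-117887333. Its intensity was 8020, 7116 and 7953 in KO/Kd, 3219, 3749 and 4022 in KO, 2791, 2796 and 2327 in Kd, 3417, 4038 and 3654 in +/+ tamoxifen and 2166, 2278 and 2311 in control cells. KO/Kd arrays were far above the rest, KO and +/+ tamoxifen arrays overlapped, and Kd and control arrays were lowest without overlap between them. The KO/Kd difference from control was 1.76 ± 0.10 (log2, SE), or 3.40-fold (limma, adjusted p = 1.15e-10). Its other 2 probe sets differed by 1.85 and 1.33. The names of its 3 probe sets mark them as able to match several transcripts.

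Atp6v0d1 encodes subunit d, which joins the rotor ring to the central stalk, and lies at chr8:105524461-105566064. Its intensity was 7718, 8065 and 8273 in KO/Kd, 3952, 4250 and 4751 in KO, 3300, 3188 and 3034 in Kd, 3218, 3398 and 3055 in +/+ tamoxifen and 3030, 3037 and 2964 in control cells. KO/Kd and KO arrays each stood clear of all other groups, whereas Kd, +/+ tamoxifen and control arrays lay close together. The KO/Kd difference from control was 1.41 ± 0.07 (log2; limma, adjusted p = 6.28e-11). Atp6v0e, the small membrane subunit e (chr17:26676396-26699647), was measured at 10675, 10104 and 10075 in KO/Kd, 6371, 6660 and 6912 in KO, 5518, 5559 and 5678 in Kd, 6100, 6177 and 5875 in +/+ tamoxifen and 5492, 5406 and 5084 in control cells. Its groups kept apart from one another in the order KO/Kd, KO, +/+ tamoxifen, Kd and control, with a KO/Kd difference of 0.95 ± 0.06 from control (adjusted p = 7.60e-10).

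Atp6v0a1 differed in its pattern. It encodes the a1 form of subunit a, which holds the paths of protons through the membrane and is best known from neurons, and lies at chr11:101009422-101063719. Its intensity was 721, 450 and 578 in KO/Kd, 537, 470 and 712 in KO, 262, 316 and 291 in Kd, 489, 651 and 540 in +/+ tamoxifen and 350, 381 and 358 in control cells. The groups that had received tamoxifen overlapped and were all above the ethanol groups, and Kd arrays were the lowest. The KO/Kd difference from control was 0.64 ± 0.16 (adjusted p = 0.002). This call was lost after quantile normalization (0.40, adjusted p = 0.0534) and with arrays scaled to a common 75th percentile (0.38, adjusted p = 0.0545). Its further probe sets above the filter differed by 0.37, with overlap between KO/Kd and control arrays, and by 0.70. The difference between KO/Kd and KO cells was 0.02 with a 95% interval of -0.31 to 0.36.

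The catalytic sector moved in the same direction. Atp6v1a encodes subunit A, which binds and splits ATP (chr16:44085402-44139702). It was measured at 5823, 5345 and 5833 in KO/Kd, 3535, 3537 and 4077 in KO, 3091, 2934 and 2975 in Kd, 3261, 3051 and 3446 in +/+ tamoxifen and 2717, 2680 and 2483 in control cells. KO/Kd and KO arrays were each apart from all others, Kd and +/+ tamoxifen arrays overlapped, and control arrays were lowest. The KO/Kd difference from control was 1.10 ± 0.07 (log2; limma, adjusted p = 1.49e-09), and 1.07 at its other probe set. Atp6v1b2 encodes B2, the widespread form of the partner subunit of A (chr8:69088736-69113718). Its intensity was 4448, 4245 and 4318 in KO/Kd, 2245, 2512 and 2791 in KO, 2265, 2187 and 2271 in Kd, 2233, 2030 and 2162 in +/+ tamoxifen and 2063, 1845 and 1838 in control cells. Here KO/Kd arrays stood alone, while neighbouring groups overlapped below them, and the KO/Kd difference was 1.17 ± 0.08 (adjusted p = 1.32e-09). Its further probe sets above the filter differed by 1.29, by 0.27 at a mean of 31.3 in KO/Kd and 23.1 in control cells, and by 0.12 with overlap at 21.2 and 18.4. The mean over its probe sets differed by 0.71.

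Atp6v1d encodes subunit D, the shaft of the central stalk (chr12:78842982-78862008). It had 6499, 6551 and 6606 in KO/Kd, 3714, 4225 and 4414 in KO, 2934, 3102 and 2911 in Kd, 3566, 3707 and 3576 in +/+ tamoxifen and 3261, 3180 and 3077 in control cells (intensity). The KO/Kd arrays differed from each other by little, and the Kd arrays overlapped with control arrays at the low end. KO/Kd cells were higher than control by 1.04 ± 0.07 (adjusted p = 9.54e-10), and by 1.12 and 1.04 at its other probe sets. Atp6v1h encodes subunit H, which couples ATP splitting to proton transport and keeps a free V1 sector inactive (chr1:5082978-5163213). It was measured at 2722, 2905 and 3703 in KO/Kd, 1687, 2450 and 2167 in KO, 1962, 2062 and 2014 in Kd, 2252, 2400 and 2185 in +/+ tamoxifen and 1579, 1557 and 1527 in control cells. KO arrays were spread over the values of both Kd and +/+ tamoxifen arrays. The KO/Kd difference from control was 0.98 ± 0.12 (adjusted p = 1.83e-06). A further probe set, at 23.9 in KO/Kd and 19 in control cells, differed by 0.19 with overlap, and the mean of both differed by 0.58.

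Atp6ap1 encodes an accessory protein of the pump, also known as Ac45, that helps to assemble the V0 sector (chrX:74297097-74304721). Its intensity was 9303, 9492 and 10292 in KO/Kd, 6847, 7505 and 7695 in KO, 6841, 6617 and 6256 in Kd, 7378, 7206 and 7001 in +/+ tamoxifen and 5639, 5883 and 5649 in control cells. KO and +/+ tamoxifen arrays overlapped below the KO/Kd arrays, and control arrays were lowest. The KO/Kd difference from control was 0.76 ± 0.07 (adjusted p = 3.93e-08).

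Set in order of group means at the probe sets used, KO/Kd was the highest group for 9 of 9 genes. Its arrays overlapped the next group only for Atp6v0a1. At the further probe sets of Atp6v0a1 above the filter KO was highest, at 554 and 331 against 473 and 317 in KO/Kd cells. The share of all genes with KO/Kd as the highest group was not counted. At the probe sets used KO was next for 7 genes, and +/+ tamoxifen for Atp6v0b and Atp6v1h, where it overlapped KO. Control was lowest for 7 genes, and Kd for Atp6v0a1 and Atp6v1d. For Atp6v0d1 and Atp6v1b2 the arrays of the lowest 3 groups overlapped between neighbours. Each gene was also set against the mean standardized profile of the other 8 over the 15 arrays. Pearson's r was 0.604 for Atp6v0a1, 0.861 for Atp6v1h and between 0.943 and 0.986 for the other 7. These arrays share the 5 group differences and the array-wide scale, so r describes the profile only.

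Hdac1 deletion with the scrambled micro-RNA was accompanied by smaller differences. In KO against control cells 9 of 9 pump genes were higher and 0 lower, where 19.6% of all genes were higher and 4.66% lower. The counts over all genes were 2617 and 623, and 1874 and 1935 after quantile normalization. Without KO array 1, 2 or 3 or control array 1 the lower genes were 395, 397, 937 or 407. The median difference was 0.41, which is 0.34 above that of all genes, and the range was 0.32 to 0.69. Atp6v0b was at 0.69 ± 0.10 (adjusted p = 8.67e-05), Atp6v0a1 at 0.62 ± 0.16 (0.00939) and Atp6v0d1 at 0.51 ± 0.07. Atp6v0e differed least (0.32 ± 0.06), and Atp6v1a, Atp6v1h, Atp6v1b2, Atp6v1d and Atp6ap1 were at 0.50, 0.41, 0.39, 0.37 and 0.36. The call of Atp6v0a1 was lost without KO array 3 (0.45, adjusted p = 0.0583). That of Atp6v1h was lost without KO array 2 (0.30, 0.105), KO array 3 (0.38, 0.0649) or control array 3 (0.40, 0.0564), and with arrays scaled to a common 75th percentile (0.30, 0.0573) or with arrayWeights (0.29, 0.245). Within KO cells the mean standardized profile of the pump genes was -0.19, 0.16 and 0.44 on arrays 1, 2 and 3, and the 75th percentile of these arrays was 420, 464 and 509. The part of this array-wide difference in the spread of the KO group was not tested.

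**Figure D2:**
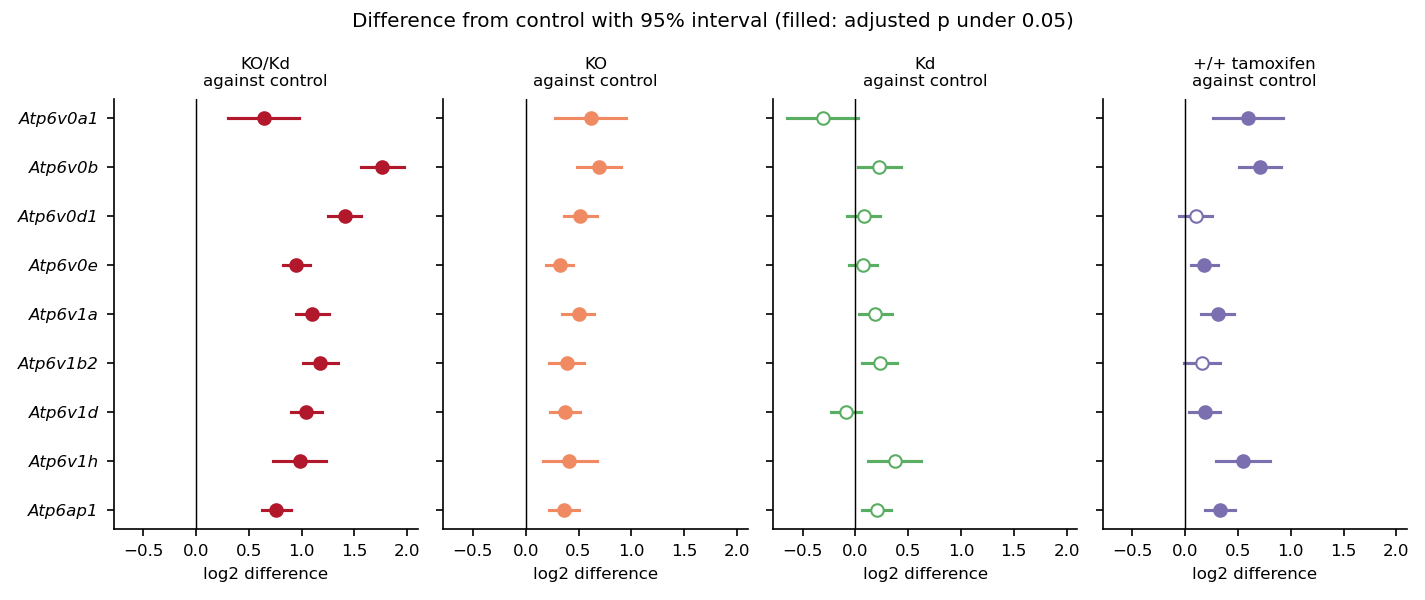
Log2 difference from control cells with 95% interval for the 9 pump genes, in KO/Kd, KO, Kd and +/+ tamoxifen cells from left to right. Filled points are past an adjusted p of 0.05 over all tested genes (limma). KO/Kd differences range from 0.64 to 1.76, and those of Kd cells from -0.31 to 0.37, with 7 of 9 above 0 and 0 filled points.

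Hdac2 knockdown without deletion gave no calls among the pump genes. In Kd against control cells 0 of 9 passed the threshold with limma. Among all genes 7.55% were higher and 3.04% lower, or 1010 and 407 genes, which were 971 and 1088 with arrays scaled to a common 75th percentile. Without a Kd array or control array 2 the higher genes were 620 to 789 and the lower 261 to 335. The median difference of the pump genes was 0.19, which is 0.16 above that of all genes. Atp6v1h was at 0.37 ± 0.12 (adjusted p = 0.0596), Atp6v1b2 at 0.23 ± 0.08 (0.0796) and Atp6ap1 at 0.20 ± 0.07 (0.0723). Atp6v0a1 was at -0.31 with a 95% interval of -0.65 to 0.02, and Atp6v1d at -0.09 with an interval of -0.23 to 0.05. The count of calls depended on the setting and was between 0 and 5 under the alternatives tried.

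Cells with intact Hdac1 and tamoxifen also differed from control cells. In +/+ tamoxifen against control cells 7 of 9 pump genes were higher and 0 lower, where 21.5% of all genes were higher and 6.93% lower. Those were 2883 and 928 genes, and 1943 and 2011 after quantile normalization. The median difference of the pump genes was 0.31, or 0.23 above that of all genes. Atp6v0b was at 0.71 ± 0.10 (adjusted p = 4.38e-05), Atp6v0a1 at 0.60 ± 0.16 (0.00977), Atp6v1h at 0.55 ± 0.12, Atp6ap1 at 0.33 and Atp6v1a at 0.31. Atp6v1d (0.19, adjusted p = 0.0479) lost its call without any one of the 6 arrays (0.17 to 0.21), after quantile normalization (0.07), and with arrays centred on the median (0.12) or scaled to a common 75th percentile (0.08). It was also lost with a pseudocount of 1 (0.19) and with the replicate block (0.19). Atp6v0e (0.18, adjusted p = 0.0317) lost it without +/+ tamoxifen array 1 (0.18) or 2 (0.17), or control array 2 (0.19) or 3 (0.15), and under the same 3 scalings (0.08, 0.12 and 0.07) and the replicate block (0.18). Atp6v0a1 lost it without +/+ tamoxifen array 2 (0.48, adjusted p = 0.0545) and after quantile normalization (0.47, adjusted p = 0.0533). Atp6v0d1 at 0.10 (95% interval -0.06 to 0.25) and Atp6v1b2 at 0.16 (-0.01 to 0.33) did not pass.

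Against the +/+ cells, which had also received tamoxifen, KO/Kd cells differed as well. The groups also differ in cell origin, and possibly in their viruses. In KO/Kd against +/+ tamoxifen cells 8 of 9 pump genes were higher and 0 lower, with a median of 0.80, or 0.71 above that of all genes. Among all genes 38.3% were higher and 23.5% lower, or 5124 and 3143, which were 4273 and 4376 after quantile normalization. Atp6v0d1 was at 1.31 ± 0.07 (adjusted p = 1.78e-10), Atp6v0b at 1.05 ± 0.10 and Atp6v1b2 at 1.01 ± 0.08. Atp6v1d, Atp6v1a and Atp6v0e were at 0.85, 0.80 and 0.76, and Atp6ap1 and Atp6v1h at 0.43 each. Atp6v0a1 did not pass (0.04, 95% interval -0.29 to 0.38). In KO against +/+ tamoxifen cells, in contrast, 2 of 9 were higher, 0 lower and 7 not past the threshold, with a median of 0.13 beside -0.01 for all genes. Here 12.8% of all genes were higher and 11.3% lower, or 1711 and 1516, and 2149 and 2174 after quantile normalization. These were 2047 and 976 without KO array 1, and 1297 and 2289 without KO array 3. The 2 genes were Atp6v0d1 (0.42 ± 0.07, adjusted p = 0.000466) and Atp6v1b2 (0.23 ± 0.08, 0.0454). The call of Atp6v1b2 was lost without any one of +/+ tamoxifen arrays 1 to 3 (0.19 to 0.26) or of KO arrays 2 (0.22) and 3 (0.15), and Atp6v1d (0.18) gained one without KO array 1 (0.26, adjusted p = 0.00529). For Atp6v0b the difference was -0.02, with a 95% interval of -0.22 to 0.18.

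The deletion was compared with and without the knockdown. In KO/Kd against Kd cells, where tamoxifen and Hdac1 differ, 9 of 9 pump genes were higher and 0 lower, with a median of 0.95 beside 0.13 for all genes. Of all genes 42.9% were higher and 20.5% lower, or 5742 and 2737, and 4199 and 4367 after quantile normalization. Atp6v0b was at 1.54 ± 0.10, Atp6v0d1 at 1.33 ± 0.07 and Atp6v1d at 1.13 ± 0.07, and Atp6v0a1 was at 0.95 ± 0.16. In KO/Kd against KO cells, which differ in the micro-RNA alone, 8 of 9 were higher and 0 lower, with a median of 0.63 beside 0.08. Of all genes 36.2% were higher and 20.6% lower, or 4842 and 2762, and 4026 and 4175 after quantile normalization. Atp6v0b was at 1.07 ± 0.10 (adjusted p = 7.11e-08) and Atp6v0d1 at 0.89 ± 0.07, and the gene that did not pass was Atp6v0a1.

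The interaction asks whether deletion with tamoxifen went with a larger difference in knockdown cells than in scrambled cells. It is the KO/Kd against Kd difference minus the KO against control difference. It was above 0 and past the threshold for 6 of 9 pump genes and below 0 for 0, with a median of 0.56 beside 0.06 for all genes. Of all genes 25.8% had a positive and 17.2% a negative interaction, or 3453 and 2296, and 3235 and 3456 after quantile normalization. The interaction was 0.85 ± 0.14 for Atp6v0b (adjusted p = 9.11e-05), 0.82 ± 0.10 for Atp6v0d1, 0.76 ± 0.10 for Atp6v1d, 0.56 ± 0.09 for Atp6v0e, 0.56 ± 0.11 for Atp6v1b2 and 0.42 ± 0.10 for Atp6v1a (0.00412). Atp6v0a1 (0.33, 95% interval -0.14 to 0.80), Atp6ap1 (0.20, 0.00 to 0.40) and Atp6v1h (0.20, -0.16 to 0.55) did not pass. These comparisons share arrays, so their values are set side by side only.

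**Figure D3:**
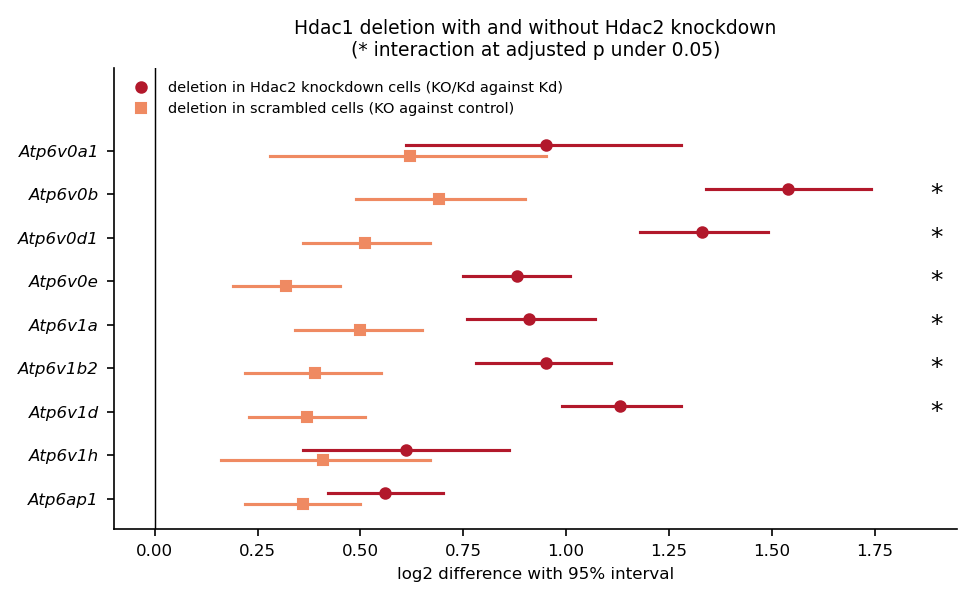
Log2 difference with 95% interval for Hdac1 deletion with tamoxifen, for the 9 pump genes. Circles are Hdac2 knockdown cells (KO/Kd against Kd) and squares are scrambled cells (KO against control). Asterisks mark the 6 genes with an interaction past an adjusted p of 0.05. Atp6v0b lies at 1.54 and 0.69, and Atp6ap1 at 0.56 and 0.36.

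Of 16 other pump genes listed, 15 had a probe set and 11 were tested. In KO/Kd against control cells 8 of these 11 were higher and 0 lower, with a median of 0.79, where 46.2% of all genes were higher and 19.3% lower. Atp6ap2, an accessory protein also known as the prorenin receptor, was at 25224 in KO/Kd and 9558 in control cells (mean intensity, n = 3 each; log2 difference 1.40). Atp6v0a2 and Tcirg1 encode further forms of subunit a, known from the Golgi and from lysosomes and osteoclasts. They were higher by 1.33 and 1.05. Further probe sets of Atp6v0a2 differed by 1.27 and by 0.53. At the latter +/+ tamoxifen cells were highest, at 811 against 738 in KO/Kd cells. In the V1 sector Atp6v1e1 and Atp6v1g1, of the outer stalks, were higher by 1.22 and 0.70, Atp6v1f, of the central stalk, by 1.15 and Atp6v1c1, which holds the outer stalks, by 0.58. Rnasek, a small membrane protein found in the V0 sector, was higher by 0.79. Atp6v0e2, Atp6v1e2 and Atp6v1g2 had group means between 18.2 and 33.7, near the array medians of 24.1 to 30.7, and did not pass. Atp6v0a4, Atp6v0d2, Atp6v1b1 and Atp6v1c2, forms known from specialised tissues, did not pass the filter on dim probe sets, with intensities between 9.09 and 18.5.

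The tested forms did not follow a common order across the other comparisons. In +/+ tamoxifen against control cells 6 of the 11 were higher and 1 lower (21.5% and 6.93% of all genes). The lower gene was Atp6v1c1 (-0.22), which was higher in KO than in +/+ tamoxifen cells (0.71). At its further probe sets the difference of +/+ tamoxifen from control cells was -0.04 and -0.15. In KO against control cells 8 were higher and 0 lower (median 0.39), where 19.6% of all genes were higher and 4.66% lower. In Kd against control cells 2 were higher (Atp6v0a2 0.33, Atp6ap2 0.31) and 1 lower (Rnasek -0.24), where 7.55% of all genes were higher and 3.04% lower. In KO/Kd against +/+ tamoxifen cells 8 were higher and 0 lower (median 0.72; 38.3% and 23.5% of all genes), and in KO against +/+ tamoxifen cells 2 were higher (Atp6v1c1 and Atp6v1f) and 0 lower (12.8% and 11.3%). The interaction was positive for 7 of 11 and for 25.8% of all genes, with Atp6v1f at 0.79, Rnasek at 0.78 and Atp6v1e1 at 0.71.

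**Figure D4:**
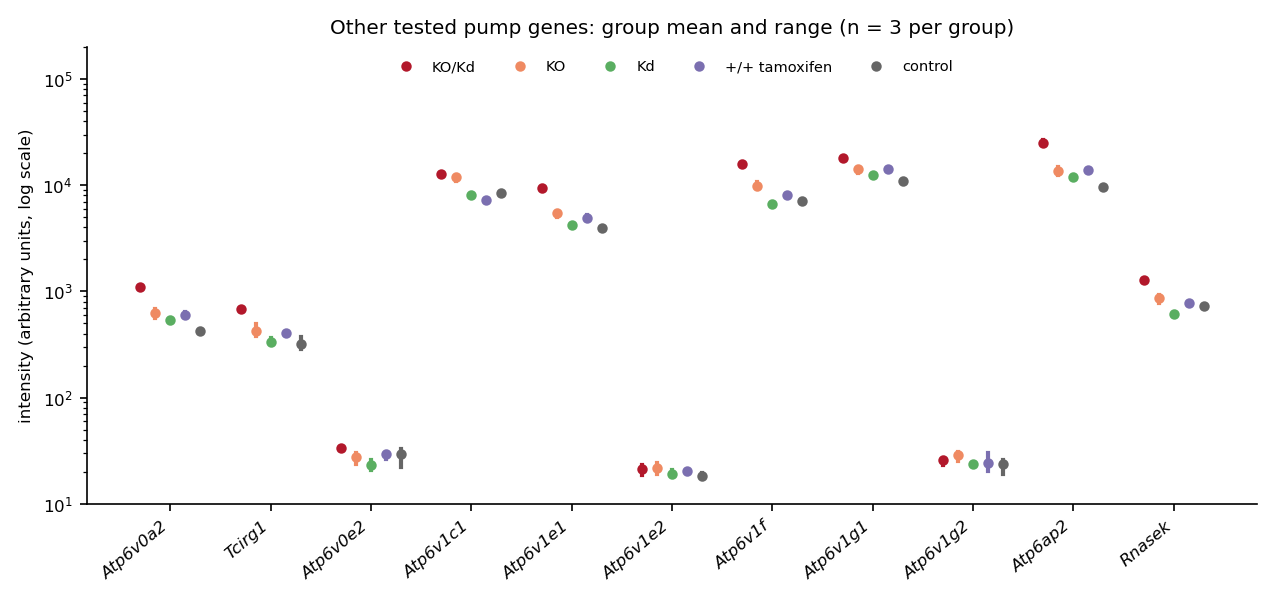
Mean intensity (points) and range over 3 arrays (bars) on a log scale for the 11 other pump genes tested, in KO/Kd, KO, Kd, +/+ tamoxifen and control cells from left to right within each gene. Atp6v0e2, Atp6v1e2 and Atp6v1g2 lie between 18.2 and 33.7, and the other 8 are highest in KO/Kd cells at the probe set shown.

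Genes that assemble or regulate the pump were described in the same way. Of 20 listed, 16 were tested, and in KO/Kd against control cells 14 were higher and 1 lower, with a median of 0.63, where 46.2% of all genes were higher and 19.3% lower. Dmxl2, of the rabconnectin complex that promotes assembly of V1 with V0, was at 763 in KO/Kd and 127 in control cells (mean intensity; 2.47). Wdr7 and Rogdi, of the same kind of complex, were higher by 0.96 and 1.17. Ostm1 and Clcn7, which form the chloride-proton exchanger of lysosomes, were higher by 2.14 and 1.24. Vma21, Tmem199 and Ccdc115, assembly factors of the endoplasmic reticulum, were higher by 0.46, 0.41 and 0.27. Ncoa7, a protein with a TLDc domain that interacts with the pump, was lower (-0.53), whereas Oxr1 of the same protein family was higher (0.96). Clcn3, an endosomal exchanger, was at 0.09 and did not pass. In KO against control cells 8 were higher and 0 lower (19.6% and 4.66% of all genes), in Kd against control cells 3 and 0 (7.55% and 3.04%), and in +/+ tamoxifen against control cells 9 and 1 (21.5% and 6.93%).

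Of 8 listed transcription factors of lysosomal genes and their regulators, 7 were tested, and 5 were higher and 1 lower in KO/Kd against control cells (46.2% and 19.3% of all genes). Tfeb was dim, at 89.9 in KO/Kd, 55.4 in KO, 50.3 in Kd, 47.4 in +/+ tamoxifen and 52.6 in control cells (mean intensity; KO/Kd against control 0.62). Tfe3 was at 0.18 and did not pass, and Mitf was lower (-0.47). Flcn, Fnip1 and Fnip2, which act together on the Rag GTPases and thereby hold TFEB and TFE3 in the cytosol, were higher by 0.94, 0.91 and 0.80. Zkscan3, a repressor of lysosomal genes in human cells, was higher by 0.67. The Ragulator and amino acid sensing list had 13 genes tested, with 8 higher and 1 lower in the same comparison (median 0.43), against the same 46.2% and 19.3% of all genes. Rragd, which encodes the GTPase RagD, was at 942 in KO/Kd, 69.5 in KO, 35.3 in Kd, 55.5 in +/+ tamoxifen and 22.1 in control cells, a log2 difference of 4.64 between KO/Kd and control. Mlst8, a subunit of the mTOR complexes, was lower (-0.65).

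Of 36 tested lysosomal enzymes and membrane proteins 34 were higher and 0 lower in KO/Kd against control cells, with a median of 1.27, where 46.2% of all genes were higher and 19.3% lower. Neu1, the lysosomal sialidase, was higher by 2.87, Gm2a, the activator of ganglioside breakdown, by 2.79 and Manba, the lysosomal beta-mannosidase, by 2.60. Of 15 tested subunits of the mitochondrial ATP synthase, a related rotary enzyme, 7 were higher and 1 lower, with a median of 0.19 near the 0.16 of all genes. Of 16 tested p53 target genes 15 were higher and 0 lower, with a median of 1.66. The lists hold other genes than the pump's and were compiled with earlier results known, so their counts describe these cells and nothing more. Other cell types left little signal, with exceptions. The summed intensity of 14 macrophage and osteoclast markers was 500 to 683 on KO/Kd and 484 to 514 on control arrays. Of its 7 tested members 2 were higher in KO/Kd than in control cells, Cd68 (57.2 and 30.5; log2 difference 0.62, adjusted p = 0.00472) and Acp5 (26.2 and 17.2; 0.34, adjusted p = 0.000402). Csf1r was higher in KO than in control cells (176 and 88; 0.85). Cd14, the brightest of these 14 markers, was at 236 in KO/Kd and 205 in control cells and did not pass (0.17). The leukocyte marker Ptprc was at 13.3 and 13.1, below the array medians. Summed endothelial markers were 121 to 161 on KO/Kd and 67.8 to 72.2 on control arrays, carried mostly by Kdr (77.2 and 15.7). Tek, below the filter on dim probe sets, was at 22.6 and 13.9. Pecam1 and Cdh5 were at 16 or below in every group. Summed epithelial markers were 142 to 155 on KO/Kd and 148 to 163 on control arrays, with Epcam lower in KO/Kd cells (35.8 and 51.2; -0.37). Summed muscle markers were 271 to 413 on KO/Kd and 1889 to 2305 on control arrays, carried by Acta1 (265 and 2051). Of the 4 muscle markers tested 1 was lower, Acta1, and 2 were higher, Myog (35.2 and 18.7; 0.55) and Des (29 and 20.5; 0.30), while Myod1 was at 13 or below in every group. The part of these differences in the pump values was not tested.

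**Figure D5:**
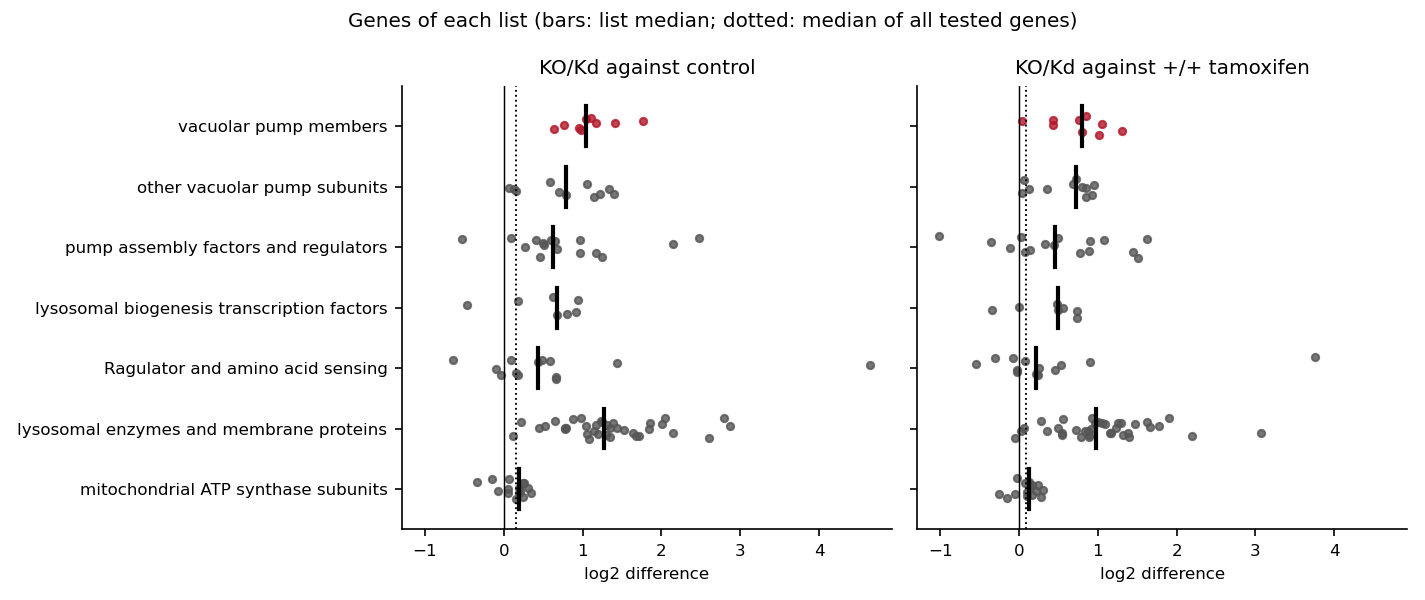
Log2 difference of each tested gene (points) in 7 lists for KO/Kd against control (left) and KO/Kd against +/+ tamoxifen (right), with the list median as a bar and the median of all tested genes as a dotted line. The medians against control are 1.04 for the 9 pump genes, 1.27 for lysosomal enzymes and membrane proteins and 0.19 for the mitochondrial ATP synthase.

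The tested genes most like the pump in profile were found by Pearson's r over the 15 arrays to the mean standardized profile of the 9 genes. They were Ctsd, which encodes the lysosomal protease cathepsin D (r = 0.996), Ypel5, Mien1 and Clcn7 (0.994 each), and Arhgap44 and Atp6v1e1 (0.992 each). Ctsd was at 11375 ± 866 in KO/Kd, 5497 ± 688 in KO, 3363 ± 191 in Kd, 4545 ± 190 in +/+ tamoxifen and 3107 ± 92.6 in control cells (SD, n = 3 each). Its highest mean was in KO/Kd and its lowest in control cells, and r is given with no test because the 15 arrays share the group differences and the array-wide scale.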

How the data were processed

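RNA of 15 MEF samples was labelled with biotin and hybridised to Affymetrix mouse arrays, per the labels' protocols. The authors deposited 1 linear intensity per probe set and array for 45037 probe sets; their summarisation and normalization are not given in the sources used here. Probe sets with 1 symbol (34945) were used, and those with several (932) or none (9160) were left out. Intensities were transformed to log2(intensity + 16). Probe sets had to exceed the 40th percentile of the array on 3 or more arrays. Each gene was represented by its brightest probe set, and 13382 of 18193 genes were tested. limma 3.58.1 in R 4.3.3 (lmFit, contrasts.fit, eBayes) was run on the 15 arrays together, with a coefficient for each of the 5 groups. P-values were adjusted by Benjamini-Hochberg over all tested genes within each of 9 comparisons, with a threshold of 0.05. All adjusted p-values printed are limma's. Differences are on the log2(intensity + 16) scale, which understates those of dim genes, and the number of arrays limits the precision (median SE 0.0868 against control).

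The pump genes and all gene lists were chosen with earlier results of these data known. Named genes were the pump genes, Hdac1 and Hdac2, any measured gene of the lists of other pump subunits, of assembly factors and regulators and of transcription factors, up to 3 genes with the largest absolute difference past the threshold from other lists, and the 6 genes with the highest r to the pump profile. Values of Ptprc, Pecam1, Cdh5, Kdr, Epcam, Cd68, Acp5, Csf1r, Acta1, Myog, Des, Myod1 and Mlst8 are given although the rule does not name all of them, and were picked after their values were seen. The same holds for Col1a1, Thy1, Tek and Cd14. Promoter windows were RefSeq's. Whether replicate numbers pair samples is not stated in the titles. In 0 of 10 pairs of groups did every same-numbered pair of arrays correlate above 0.1 in its deviations (r from -0.161 to 0.135). Deviations were taken from group means of 3 arrays, so this check cannot exclude a shared source. No pair of arrays was identical. The procedure was tested on simulated data. Alternatives were other eBayes options, samples, filters, pseudocounts, probe-set rules, scalings and weights, a replicate block, and each array left out.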

Additional observations from a re-analysis of the deposited data

Results flagged for a closer look

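For 6 pump genes the effect of tamoxifen with Hdac1 deletion differed between Hdac2 knockdown cells and scrambled cells. The measure is the interaction term of the limma fit (KO/Kd minus Kd, less KO minus control). Both of its differences change tamoxifen together with Hdac1, so the term cannot be credited to the deletion alone. The interaction was 0.85 for Atp6v0b, 0.82 for Atp6v0d1, 0.56 for Atp6v0e, 0.42 for Atp6v1a, 0.56 for Atp6v1b2 and 0.76 for Atp6v1d (log2). Among all genes 25.8% had a positive interaction past the threshold, and the median of all genes was 0.06. After quantile normalization, median centring and scaling to a common 75th percentile 6 of 9 pump genes were past the threshold, with a median of 0.48 in each.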

How the results depend on the processing

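The counts of pump genes past the threshold in KO/Kd against control, Kd and KO cells, in KO/Kd against +/+ tamoxifen cells, in KO against control cells and in the interaction stayed within 1.5 times of the reported counts under all alternatives tried. In Kd against control cells the reported 0 became 3 with trended and robust eBayes (3 higher), 3 with only the 2 groups compared in the model (2 higher, 1 lower), 1 with the mean of probe sets (lower), 1 after quantile normalization (higher), 3 with arrays centred on the median (higher), 1 with arrays scaled to a common 75th percentile (lower) and 5 with arrayWeights (higher). In +/+ tamoxifen against control cells the reported 7 became 4 after quantile normalization. In KO against +/+ tamoxifen cells the reported 2 became 4 with trended and robust eBayes, 1 with only the compared groups, 1 with the replicate block, 1 with a pseudocount of 1, 5 after quantile normalization, 4 with a common 75th percentile and 1 with arrayWeights. The cause was not tested.

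With each array left out in turn the counts were 9 to 9 in KO/Kd against control, 7 to 9 in KO against control, 0 to 0 in Kd against control, 4 to 6 in +/+ tamoxifen against control, 8 to 8 in KO/Kd against +/+ tamoxifen and 1 to 3 in KO against +/+ tamoxifen. The 4 came without +/+ tamoxifen array 2, the 1 without any one of the +/+ tamoxifen arrays or of KO arrays 2 and 3, and the 3 without KO array 1. The counts were 9 to 9 in KO/Kd against Kd, 8 to 8 in KO/Kd against KO and 6 to 6 in the interaction. A fit with the replicate number as a block, though the numbers share no known source, gave 5 in place of 7 pump genes in +/+ tamoxifen against control cells, 1 in place of 2 in KO against +/+ tamoxifen cells and no other change in these counts. Of 1413 gene values under alternatives 1345 kept their side of the threshold, 39 lost and 29 gained a call, and 0 called values changed sign. Without _x_at and _s_at probe sets Atp6v0b and Atp6ap1 had no value. With arrayWeights 1282 genes in place of 3240 were past the threshold in KO against control, 2815 in place of 1417 in Kd against control and 1601 in place of 3227 in KO against +/+ tamoxifen cells.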
